A study of Homo sapiens with 8 samples.

Results

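The 8 RNA sequencing libraries of this series were divided by their replicate number, with replicates 1 and 3 on one side and replicates 2 and 4 on the other. All 8 libraries of the series entered the comparison, 4 odd-numbered and 4 even-numbered, and each side held 2 libraries of each group. The groups were THP1 cells, a human monocytic leukaemia line, carrying an empty vector (MOCK) and the same line carrying the iRxI/AxA mutant, whose libraries are named RRM2_OE. Cells of both groups received doxycycline at 2 µg/mL, and libraries were made from 200 ng of total RNA with a stranded poly(A) kit. The labels name no promoter, clone or separate cultures and do not say what an odd or an even number stands for, so p-values measure the spread between these libraries, which may be technical. The split was noticed in these same libraries beforehand, so its own p-values are not independent evidence for it.

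The targeted gene checked the group labels. RRM2, the small subunit of ribonucleotide reductase, read at 116, 128, 123 and 127 CPM (counts scaled to TMM-adjusted library size) in MOCK replicates 1 to 4 and at 223, 235, 215 and 224 CPM in RRM2_OE replicates 1 to 4. Total counts per library lay between 10994255 and 11686152. The 10 monocytic markers were present throughout, among them CD33 at 111 to 141 CPM, SPI1 at 239 to 336 CPM and CD14 at 9.01 to 13.8 CPM. Of the markers of other cells, EPCAM reached 0.174 CPM at most, MS4A1 0.261, COL1A1 0.717, CD3E 0.695 and ALB 0.865. Erythroid transcripts stood beside these in every library, with GATA1, an erythroid and megakaryocytic transcription factor, at 96.0 to 114 CPM.

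Counts in such libraries depend on the cells and on how each RNA is captured, copied and sequenced, and features of a transcript such as its length and its share of G and C bases enter at the later steps. The mitochondrial genome adds a separate set of messages. It is read from both strands as long precursors that are cut into single mRNAs, and ND6 is the only one of its protein genes read from the light strand. ATP8 and ATP6 share one mRNA, and the end of the ATP8 reading frame overlaps the start of ATP6.

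Odd and even libraries differed in many genes by small amounts. Of 15782 genes tested with edgeR's quasi-likelihood test with group as a covariate, 2348 (14.9%) rose and 2275 (14.4%) fell in odd against even libraries at a Benjamini-Hochberg adjusted p below 0.05, together 29.3% of the genes. Among those called, the median absolute difference was 0.22 on the log2 scale, the 90th percentile was 0.45, and 62.9% (2909 genes) differed by less than 1.2-fold. At least 2-fold differences were found in 22 genes called higher and 24 called lower. The 4 odd and 4 even libraries did not overlap in CPM for 2964 genes (18.8% of those tested), of which 2637 were called. Of all calls, 50.8% were higher, against 39.4% with library sizes alone as the scaling and 41.2% on log2(RPKM + 1), where the median of all genes moved to -0.03 and -0.02. With the group covariate left out, the calls numbered 1098 up and 985 down.

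The group term of the same fit served as a yardstick. It called 2438 genes (15.4%) higher and 2295 (14.5%) lower in RRM2_OE, together 30.0% of those tested, with a median absolute difference of 0.22 among called genes and 148 genes at 2-fold or more. Both terms called 1730 genes, 37.4% of the genes that followed replicate parity and 36.6% of those that followed the group. Parity and group were thus alike in the number of genes and the usual size of a difference, and the group had more genes at 2-fold or more.

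The difference took the same direction in both groups, which were also fitted apart, 2 libraries against 2, with no library in common. Within MOCK, 2126 genes were called (13.5%), 1112 (7.05%) higher and 1014 (6.43%) lower. Of these, 2106 (99.1%) had the same sign within RRM2_OE, 1689 (79.4%) were called there with that sign, and 0 were called with the opposite sign. Within RRM2_OE, 3344 genes were called (21.2%), 1767 (11.2%) higher and 1577 (9.99%) lower, of which 3261 (97.5%) had the same sign in MOCK and 1689 (50.5%) were called there. Across the 10324 genes at a mean of 10 CPM or more, Spearman's rho between the 2 within-group differences was 0.79, and across all 15782 genes it was 0.53. These points share depth and transcript composition, and genes are not independent replicates.

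**Figure D1:**
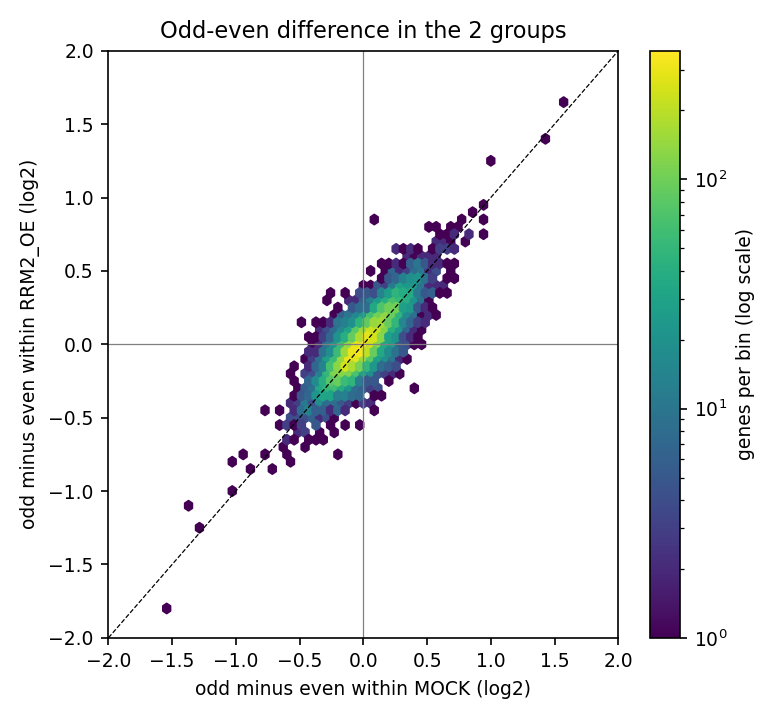
Log2 difference, odd minus even, within RRM2_OE (vertical) against that within MOCK (horizontal) for the 10324 genes at a mean of 10 CPM or more, with colour giving genes per bin on a log scale and the dashed line marking equal differences. The genes lie along the dashed line, with Spearman's rho of 0.79.

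Whether the difference depended on the group was tested with an interaction term. By edgeR it called 0 genes (0.0%), with 510 genes (3.23%) at an unadjusted p below 0.05 and a lowest adjusted p of 0.183. DESeq2 called 0, with 50 at an unadjusted p below 0.05, and limma-voom called 0, with 523. Without the low-count filter, edgeR called 2, with 779 at an unadjusted p below 0.05. With 2 libraries in each cell of the design, a p that misses the threshold does not show that the differences were equal.

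Sequences are shown here for the genes that mark the main patterns. MT-ATP8 is printed whole (207 bases, chromosome M, 8366 to 8572, plus strand), since it had the largest rise of the mitochondrial genes, with the 46 bases it shares with the start of MT-ATP6 (8527 to 8572) in capitals. PPDPF (chromosome 20, hg19 62152077 to 62153559, plus strand) had the highest transcript GC of the 10 genes named below for the largest rises. ATP5MK (chromosome 10, hg19 105148798 to 105156223, minus strand) had the lowest of the 10 named for the largest falls. The first 120 coding bases of both are given 5′ to 3′ with G and C in capitals, all read from GENCODE 29 transcripts.
MT-ATP8: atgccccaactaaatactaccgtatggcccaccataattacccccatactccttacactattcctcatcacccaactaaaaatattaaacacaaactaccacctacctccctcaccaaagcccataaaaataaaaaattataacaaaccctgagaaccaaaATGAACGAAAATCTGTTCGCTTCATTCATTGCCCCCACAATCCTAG
PPDPF: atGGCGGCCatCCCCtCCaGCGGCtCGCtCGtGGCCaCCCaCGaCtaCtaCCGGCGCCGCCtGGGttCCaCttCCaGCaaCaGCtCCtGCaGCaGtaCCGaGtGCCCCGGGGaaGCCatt
ATP5MK: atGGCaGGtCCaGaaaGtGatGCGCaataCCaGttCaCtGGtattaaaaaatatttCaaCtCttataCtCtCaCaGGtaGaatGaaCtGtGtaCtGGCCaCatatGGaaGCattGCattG
G and C made up 67.5% of the PPDPF stretch and 40.0% of the ATP5MK stretch. Over whole transcripts the values were 70.1% and 43.6%.

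Mitochondrial mRNAs were a larger part of the odd libraries. Their share of all counts was 9.51%, 7.69%, 8.02% and 6.59% in MOCK replicates 1 to 4 and 8.52%, 6.43%, 8.13% and 6.60% in RRM2_OE replicates 1 to 4. Every odd library lay above every even one, the nearest being MOCK replicate 3 at 8.02% and MOCK replicate 2 at 7.69%. The means were 8.55% ± 0.676 (SD, n = 4) and 6.83% ± 0.578, a difference of 1.72 percentage points (exact permutation test, two-sided, p = 0.0286, adjusted p = 0.0571 over 8 library measures, where 0.0286 is the smallest p that 4 against 4 allows). In bulk libraries, a change in the share of cells of a kind and a change in RNA per cell cannot be told apart.

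Of the 13 mitochondrial genes, all of them tested, 10 were higher and 1 was lower in odd libraries, with a median difference of 0.37 on the log2 scale, against 14.9% higher, 14.4% lower and a median of -0.00101 over all genes. MT-ATP8, a subunit of ATP synthase, read at 292, 105, 321 and 103 CPM in MOCK replicates 1 to 4 and at 291, 86.3, 250 and 87.8 CPM in RRM2_OE. Odd libraries were at 250 CPM or more and even libraries at 105 CPM or less. The difference was 1.60 ± 0.0470 (SE) on the log2 scale, or 3.02-fold, with an edgeR adjusted p of 5.89e-13. Its neighbour on the shared mRNA, MT-ATP6, read at 5835, 4436, 4787 and 3713 CPM in MOCK and 5207, 3286, 4732 and 3672 CPM in RRM2_OE. MT-ATP6 was higher by 0.45 ± 0.0994 (edgeR adjusted p = 0.0218), with the odd libraries again above the even ones. Because the spans overlap on one strand, reads over the shared bases could be counted to either gene or to none, and the counting rule for them is not given in the sources used here.

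MT-ND6, a subunit of respiratory complex I read from the light strand, went the other way. It read at 1851, 2925, 1394 and 2428 CPM in MOCK and 1480, 3037, 1560 and 2512 CPM in RRM2_OE. All 4 odd libraries were below all 4 even ones, and the difference was -0.80 ± 0.127 (edgeR adjusted p = 0.00615). Whether counting used the strand is not stated, and without it reads of the opposite strand at this locus cannot be told apart from those of MT-ND6.

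Among the other heavy-strand genes, MT-CO3, of cytochrome c oxidase, was higher by 0.64 (edgeR adjusted p = 0.000703) and MT-ND3, of complex I, by 0.60 (0.00875). MT-ND1, MT-ND2, MT-CO1, MT-ND5 and MT-CYB were higher by 0.44, 0.42, 0.37, 0.36 and 0.30, and MT-ND4L by 0.28. MT-ND4 at 0.34 (edgeR adjusted p = 0.0578) and MT-CO2 at 0.25 (0.138) did not pass. Odd and even libraries did not overlap for 10 of the 13 genes, the exceptions being MT-CO2, MT-ND4 and MT-CYB. Leaving out MOCK replicate 1, MOCK replicate 4 or any of the RRM2_OE libraries ended the calls of MT-ND1, MT-ND2, MT-ATP6, MT-ND5 and MT-CYB, at edgeR adjusted p-values of 0.0544 to 0.108 and with the same sign. Without the low-count filter, MT-ND1, MT-ND2, MT-ND5 and MT-CYB had edgeR adjusted p-values of 0.0643, 0.0562, 0.0659 and 0.0835. Tested against a 1.2-fold difference, MT-ATP8 and MT-CO3 passed (1.78e-11 and 0.0207) and the other 11 did not, MT-ND6 at 0.0927 among them. MT-ND4 passed in the fit with the replicate block (0.33, edgeR adjusted p = 0.00498).

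**Figure D2:**
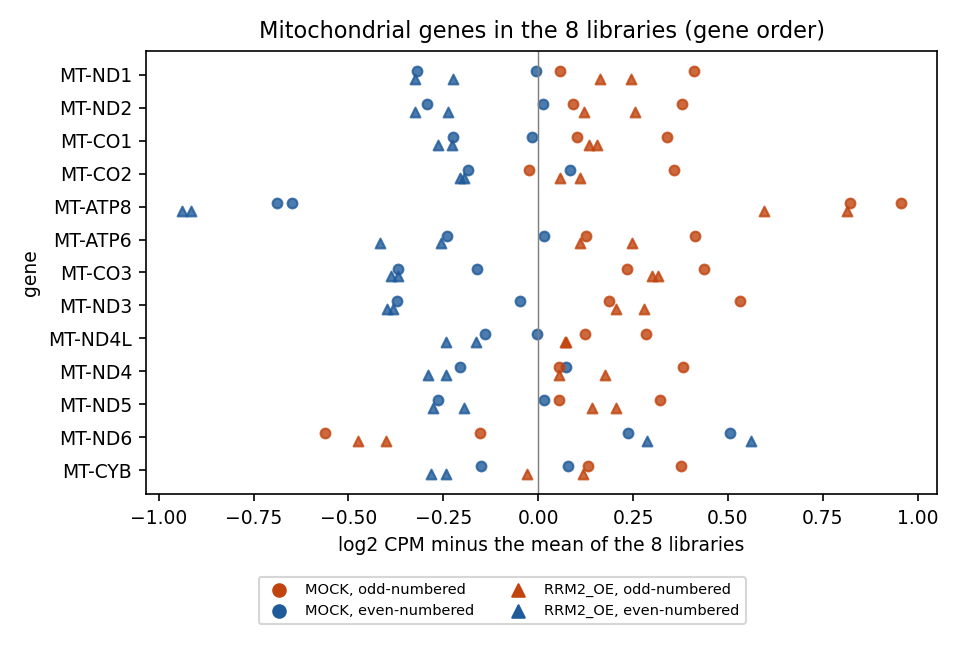
Log2 CPM of the 13 mitochondrial genes in each library, as the difference from the gene's mean over the 8 libraries, in genome order from top to bottom, with colour for odd or even number and marker shape for the group. MT-ATP8 shows the widest gap and MT-ND6 the reverse order of the other genes.

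Nuclear genes of the respiratory chain did not rise as a set with the mitochondrial ones, but were called in both directions more often than all genes. Of 78 tested, 16 were higher and 25 lower (20.5% and 32.1%, against 14.9% and 14.4% of all genes), with a median of -0.02. NDUFB4, a complex I subunit, read at 75.6, 39.6, 82.7 and 42.4 CPM in MOCK and 74.8, 42.8, 76.4 and 41.2 CPM in RRM2_OE, a rise of 0.90 ± 0.0462 (edgeR adjusted p = 2.07e-21). Odd libraries held 74.8 CPM or more and even libraries 42.8 CPM or less. UQCR10, a complex III subunit, rose by 0.63 (edgeR adjusted p = 3.61e-17), and ATP5MK, a small subunit of ATP synthase, fell by 0.77 (1.54e-14).

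The share of G and C in a transcript ran in step with the difference. A GC value from GENCODE 29 transcripts was available for 15360 of the tested genes (97.3%), and across these Spearman's rho with the odd-even difference was 0.29, with 0.25 within MOCK and 0.26 within RRM2_OE. For RRM2_OE against MOCK it was 0.07. Genes were ordered by GC into 10 bins of near-equal size. In bin 1, with the lowest GC (median 38.8%), 65 genes rose (4.23% of the bin) and 284 fell (18.5%), with a median difference of -0.06. In bin 10, with the highest GC (median 63.9%), 512 rose (33.3%) and 89 fell (5.79%), with a median of 0.12. Bin 6 was balanced, with 199 higher and 214 lower. The count-weighted mean GC of nuclear transcripts was 50.5%, 50.1%, 50.4% and 50.1% in MOCK replicates 1 to 4 and 50.5%, 50.1%, 50.5% and 50.1% in RRM2_OE. The even libraries ranged from 50.09% to 50.12% and the odd ones from 50.44% to 50.50%, so the sides did not overlap, and they differed by 0.370 percentage points (exact permutation test, two-sided, p = 0.0286, the smallest possible, adjusted p = 0.0571).

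**Figure D3:**
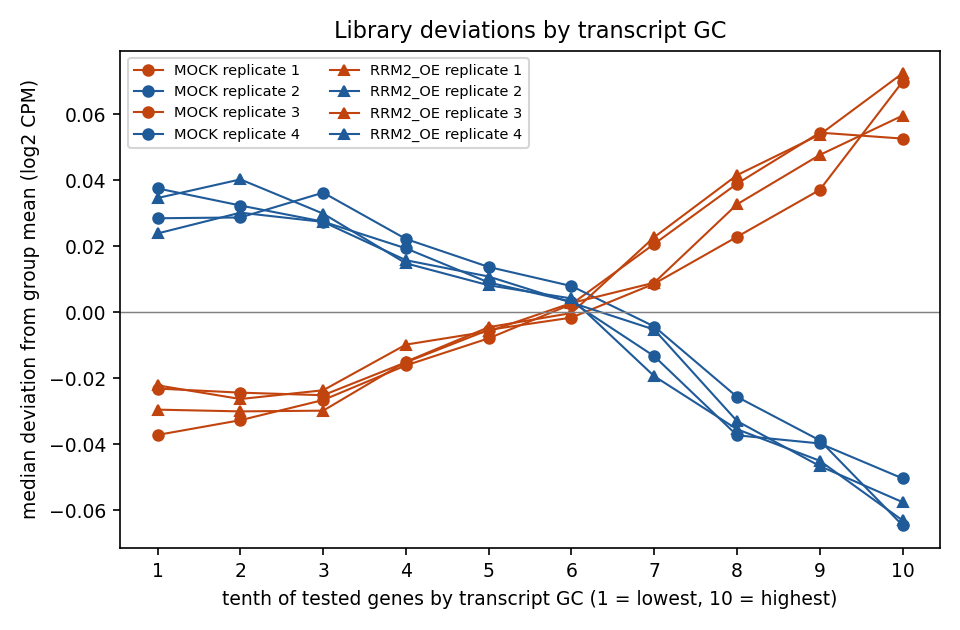
Median deviation of each library from its group mean (log2 CPM, vertical) in 10 bins of genes ordered by transcript GC (horizontal), with one line per library. The odd lines rise and the even lines fall with GC, crossing near bin 6.

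An offset that removed each library's trend with GC, chosen after seeing the data, took rho to -0.00276. With it, 2046 genes (13.0%) were higher and 2003 (12.7%) lower, 25.7% of those tested, and 3330 of the genes called without it (72.0%) kept their call and direction, with 0 called the other way. The 13 mitochondrial genes had a median GC of 44.3%, under the 49.9% of all tested genes, and their median difference was 0.37 without and 0.41 with the offset.

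Large differences were found mostly in short transcripts. A call with at least 0.5 on the log2 scale was made for 182 genes (5.76%) in the shortest of 5 bins by summed exon length (median 1065 bp) and for 11 genes (0.348%) in the longest bin (median 9198 bp). The mean level moved with length, with a median of 4.58 CPM in the shortest and 51.2 CPM in the longest bin, and its part in this pattern was not tested. Differences had little relation with length over all genes (rho -0.05). Genes with exons under 1000 bp took 6.02% ± 0.283 (SD, n = 4) of the counts in odd and 5.31% ± 0.209 in even libraries (exact permutation test, two-sided, p = 0.0286, adjusted p = 0.0571). This class holds most mitochondrial genes. Among them MT-CO2 averaged 9303 CPM in odd and 7810 CPM in even libraries, and MT-CO3 8231 and 5274 CPM. MT-ND6 went the other way, at 1571 and 2725 CPM. The measure thus shares reads with the mitochondrial share, and short nuclear genes were not measured apart. By chromosome, the median was -0.05 on chromosome 13 (median GC 43.6%), 0.05 on chromosome 16 (55.7%) and 0.37 on chromosome M.

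The 10 genes of largest rise and the 10 of largest fall were taken only where odd and even libraries do not overlap, so that their separation, and with it their sign within each group, was fixed by the choice. Some genes were left out by their symbol, among them the mitochondrial ones, of which MT-ATP8 rose more, by 1.60, than any of the 10. The 10 largest rises were led by members of near-identical families and by small proteins. NPIPB5, of the nuclear pore complex interacting protein family of chromosome 16 (22490442 to 22547842), read at 40.7, 15.2, 36.0 and 13.7 CPM in MOCK and 36.4, 13.5, 36.1 and 14.2 CPM in RRM2_OE. Odd libraries were at 36.0 CPM or more and even ones at 15.2 CPM or less. The difference was 1.40 ± 0.0679, or 2.64-fold (edgeR adjusted p = 2.47e-22). NPIPB3 rose by 0.89 (1.38e-06), and of the 12 NPIPA and NPIPB genes tested 9 were higher and 0 lower, from -0.06 to 1.40. This family was counted after its values were seen, and how reads matching several of its members were assigned is not given in the sources used here.

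Globin genes split by locus. HBA1, alpha globin on chromosome 16 (226679 to 227521), read at 236, 115, 194 and 98.6 CPM in MOCK and 205, 72.0, 172 and 85.0 CPM in RRM2_OE, with no overlap of odd and even libraries and a rise of 1.13 ± 0.123 (edgeR adjusted p = 0.0012). HBA2, whose coding sequence of 429 bases is identical to that of HBA1, rose by 0.65 (edgeR adjusted p = 9.73e-11). HBD, delta globin on chromosome 11 (5253908 to 5256600), read at 147, 398, 159 and 405 CPM in MOCK and 165, 302, 147 and 357 CPM in RRM2_OE. Its odd libraries reached 165 CPM at most and its even ones 302 CPM at least, a fall of 1.24 ± 0.0966 (edgeR adjusted p = 0.000274). HBB, beta globin, read at 237, 353, 292 and 413 CPM in MOCK and 215, 300, 190 and 265 CPM in RRM2_OE, with odd and even libraries overlapping, and fell by 0.51 (edgeR adjusted p = 0.014, and 0.0667 with the replicate block). Leaving out RRM2_OE replicate 3 gave HBB an adjusted p of 0.0502. HBB and HBD share 92.8% of their 444 coding bases, and how reads matching more than one globin gene were assigned is not stated, so all 4 values are uncertain. HBA2 and HBB were picked after their values were seen.

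The other genes of largest rise had single-copy names. VKORC1, the vitamin K epoxide reductase, read at 51.6, 27.8, 46.2 and 24.0 CPM in MOCK and 53.5, 26.4, 41.8 and 22.8 CPM in RRM2_OE, a rise of 0.94 ± 0.0725 (edgeR adjusted p = 6.95e-11). OST4, a small subunit of the oligosaccharyltransferase, read at 184, 103, 162 and 90.1 CPM in MOCK and 165, 94.8, 162 and 96.9 CPM in RRM2_OE and rose by 0.81 ± 0.0392 (8.77e-18). PPDPF, whose GC-rich start is printed above, read at 45.4, 30.2, 45.7 and 23.8 CPM in MOCK and 53.1, 31.5, 54.8 and 30.2 CPM in RRM2_OE and rose by 0.78 ± 0.0568 (4.49e-16). In OST4 the even libraries reached 103 CPM at most and the odd ones stood at 162 CPM or more. HDAC10, a polyamine deacetylase, ZNF579, a zinc finger gene, and OAZ3, an ornithine decarboxylase antizyme, rose by 0.85, 0.81 and 0.81. The spans of OST4, HDAC10 and OAZ3 overlap those of other counted genes, so their values are uncertain. For HDAC10 the other gene is MAPK12, on the same strand.

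Among the 10 largest falls, SUMO2P21 on chromosome X (114952650 to 114953669), a SUMO2 pseudogene by its symbol, read at 13.7, 40.4, 14.6 and 43.7 CPM in MOCK and 13.0, 43.3, 13.0 and 47.6 CPM in RRM2_OE. Even libraries were at 40.4 CPM or more and odd ones at 14.6 CPM or less. The difference was -1.69 ± 0.0678, 3.22-fold (edgeR adjusted p = 8.26e-26). SUMO2 itself, checked after its copy was seen, read at 63.7, 65.8, 67.5 and 68.1 CPM in MOCK and 73.5, 80.5, 69.1 and 72.1 CPM in RRM2_OE, with overlapping sides and a difference of -0.07 (edgeR adjusted p = 0.275).

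BANF1, a chromatin-binding protein of nuclear assembly, read at 26.9, 56.1, 27.2 and 52.2 CPM in MOCK and 28.6, 47.9, 26.9 and 48.5 CPM in RRM2_OE and fell by 0.90 ± 0.0555 (edgeR adjusted p = 1.92e-18). The long non-coding RNA PRADX read at 146, 260, 149 and 283 CPM in MOCK and 148, 271, 146 and 269 CPM in RRM2_OE, a fall of 0.88 ± 0.0289 (2.84e-29). In PRADX the odd libraries lay within 146 to 149 CPM and the even ones within 260 to 283 CPM. The span of PRADX overlaps that of CTSD on the opposite strand. Whether counting used the strand is not stated, so reads of CTSD may be counted here. ETFB, the beta subunit of the electron transfer flavoprotein, POTEJ, of the POTE ankyrin family, EIF3C, a translation initiation subunit, PIN4, a prolyl isomerase, and CEP131, a centrosomal protein, fell by 0.84, 0.83, 0.81, 0.73 and 0.65. ATP5MK, printed above, read at 23.7, 42.4, 23.6 and 38.8 CPM in MOCK and 28.8, 47.6, 23.6 and 41.5 CPM in RRM2_OE. Its odd libraries were at 28.8 CPM or less and its even ones at 38.8 CPM or more. All 20 genes remained called with the GC offset, which moved PPDPF from 0.78 to 0.62 and CEP131 from -0.65 to -0.78. POTEJ and EIF3C have near-identical copies. The spans of BANF1, ETFB, ATP5MK, PIN4 and CEP131 overlap those of other counted genes, for ETFB also on the same strand, so these values are uncertain.

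**Figure D4:**
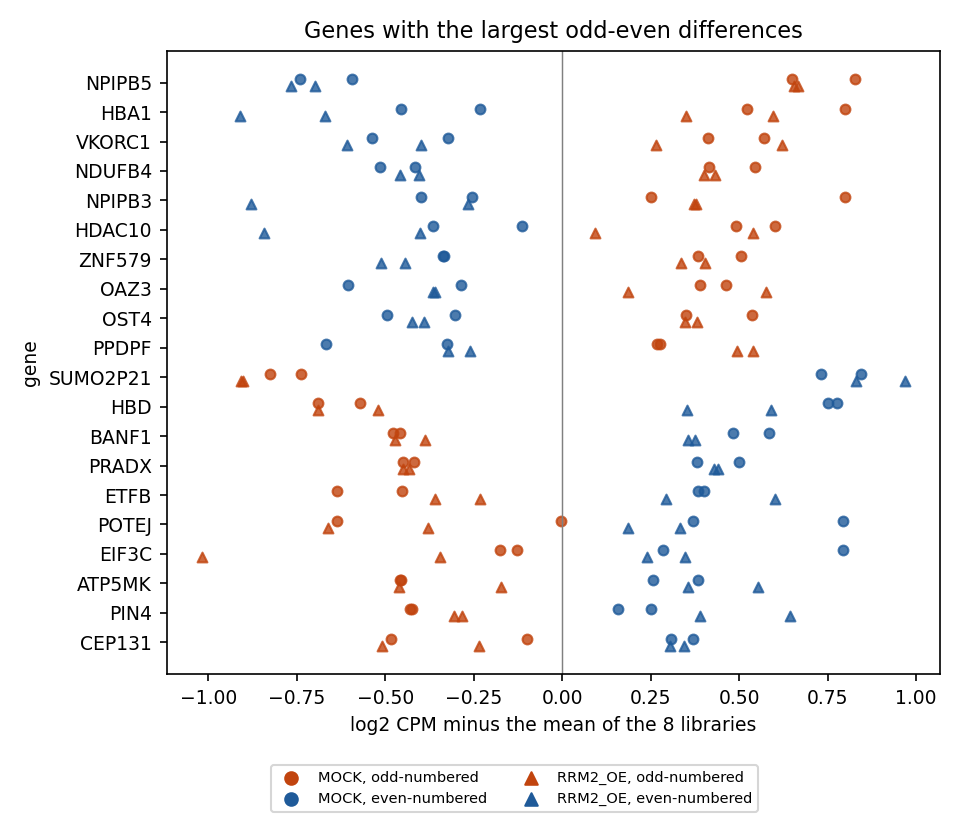
Log2 CPM in each library, as the difference from the gene's mean over the 8 libraries, for the 10 genes with the largest rises (top) and the 10 with the largest falls (bottom) in odd libraries, with colour for odd or even number and marker shape for the group. Odd and even libraries do not overlap in any of the 20 genes, which was one of the criteria for choosing them. Genes left out by their symbol, such as the mitochondrial ones, are not shown.

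Genes of protein synthesis were lower in odd libraries more often than higher. Of 78 cytosolic ribosomal protein genes tested, 11 were higher and 37 lower, with a median of -0.13 (14.9% and 14.4% of all genes, median -0.00101). The whole list took 1.91%, 2.14%, 2.00% and 2.21% of counts in MOCK and 1.85%, 2.08%, 1.74% and 1.93% in RRM2_OE. Odd and even libraries overlapped over all 8 libraries and were separate within each group. The exact permutation test, which took no account of group, gave p = 0.0571 (two-sided, adjusted p = 0.0914). RPL27A, of the large subunit, fell by 0.44 (edgeR adjusted p = 3.59e-18). RPS4X, of the small subunit, read at 602, 428, 609 and 428 CPM in MOCK and 595, 408, 548 and 384 CPM in RRM2_OE and rose by 0.51 (4.92e-22). Its span overlaps that of PIN4 on the opposite strand, which went the other way.

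Mitochondrial ribosomal protein genes were 8 higher and 23 lower of 73, translation factors 2 and 17 of 43, and nucleolar genes of ribosome assembly 3 and 20 of 46, with medians of -0.10, -0.05 and -0.11. Over all genes 14.9% were higher and 14.4% lower. EIF3A, the largest subunit of initiation factor eIF3, read at 479, 600, 469 and 585 CPM in MOCK and 404, 533, 423 and 537 CPM in RRM2_OE and fell by 0.35 (edgeR adjusted p = 1.1e-16). NCL, nucleolin, fell by 0.27 (5.34e-14), while NOP10, of the box H/ACA particle, rose by 0.61 (2.05e-17). MRPS34 fell by 0.51 and MRPL37 rose by 0.27.

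Genes of RNA splicing and protein quality control were lower in the same way. Of 73 splicing factors, 14 were higher and 39 lower (19.2% and 53.4%, against 14.9% and 14.4% of all genes), with a median of -0.11. HNRNPU and HNRNPA2B1, which bind nuclear RNA, fell by 0.37 and 0.35, and HNRNPU read at 564, 725, 557 and 722 CPM in MOCK and 526, 677, 510 and 661 CPM in RRM2_OE with no overlap between the sides. Heat shock genes were 2 higher and 19 lower of 41 (4.88% and 46.3%), with HSPA9 and HSP90AB1 falling by 0.30 and 0.28. Proteasome genes were 2 higher and 18 lower of 40, with PSMC3 falling by 0.35 and PSMD8 rising by 0.24. The median GC of these 3 lists was 46.0%, 47.1% and 47.8%, against 49.9% for all genes, and with the GC offset their medians were -0.07, -0.07 and -0.08, from -0.11, -0.11 and -0.12. Cytosolic ribosomal protein genes had a median GC of 50.4% and a median of -0.15 with the offset.

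Zinc finger genes of chromosome 19, which have a median GC of 44.9%, were 2 higher and 18 lower of 106, the share of falls being near the 14.4% of all genes. Their median was -0.10, and with the GC offset it was -0.06, with 4 higher and 12 lower. DNA repair genes were 3 higher and 23 lower of 62 (median -0.07, or -0.03 with the offset, which left 2 higher and 11 lower), with PARP1 and XRCC6 falling by 0.19 and 0.16. Replication genes were 3 higher and 16 lower of 66. Among them FEN1, a flap nuclease, fell by 0.31, and POLD2, a polymerase subunit, rose by 0.31. The span of FEN1 overlaps that of FADS2, which rose, on the same strand, so its value is uncertain. Mitosis genes were 6 higher and 18 lower of 65, and CENPF and KIF2C fell by 0.24 and 0.33. The replication and mitosis medians were -0.05 and -0.05, and with the offset -0.04 (4 higher, 14 lower) and -0.02 (4 higher, 11 lower).

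Immediate early and AP-1 genes were higher more often than any other nuclear list, 18 higher and 1 lower of 39. These were 46.2% and 2.56%, against 14.9% and 14.4% of all genes. The median of the list was 0.13, with 0.15 within MOCK and 0.09 within RRM2_OE. BTG2, an antiproliferative early response gene, read at 295, 226, 290 and 209 CPM in MOCK and 362, 268, 374 and 269 CPM in RRM2_OE. Within each group both odd libraries were above both even ones, and the rise was 0.44 ± 0.0265 (edgeR adjusted p = 6.19e-19). IER5, the 1 gene that fell, did so by 0.27 (3e-07). The list has a median GC of 55.4%, and with the offset 12 were higher and 2 lower, with a median of 0.09.

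Lysosomal genes were 24 higher and 9 lower of 61 (39.3% and 14.8%, against 14.9% and 14.4% of all genes). Their median was 0.06 both with and without the GC offset. GAA, acid alpha-glucosidase, rose by 0.41 (edgeR adjusted p = 4.26e-13) and CTSB, cathepsin B, read at 1463, 1232, 1420 and 1176 CPM in MOCK and 1211, 989, 1243 and 1021 CPM in RRM2_OE, a rise of 0.27 (9.6e-14). CTSB odd and even libraries overlapped over all 8 libraries and were separate within each group. NF-kB and cytokine genes were 12 higher and 6 lower of 45 (26.7% and 13.3%). With the GC offset they were 10 and 5, and their median went from 0.05 to 0.02. The chemokine CCL2 rose by 0.33 and BCL3 by 0.56, or by 0.36 and 0.43 with the offset. Cholesterol and fatty acid genes were 12 higher and 5 lower of 39 (30.8% and 12.8%). FADS2, a desaturase whose span overlaps that of FEN1 on the same strand, rose by 0.29. FASN, fatty acid synthase, rose by 0.24, or by 0.11 with the GC offset.

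Myeloid genes were called higher more often than lower, which for the monocyte list did not hold with the GC offset. The monocyte and macrophage list had 17 higher and 11 lower of 59 (median 0.03), and the granule and progenitor list 11 higher and 4 lower of 35 (median 0.05). These were 28.8% and 18.6% of the monocyte list and 31.4% and 11.4% of the granule list, against 14.9% and 14.4% of all genes. SPI1, a myeloid transcription factor, rose by 0.37 (edgeR adjusted p = 4.04e-14), or by 0.25 with the GC offset. CYBA, of the phagocyte oxidase, rose by 0.40 and MMP9, gelatinase B, by 0.41. MPO, the granule peroxidase, read at 1351, 1079, 1354 and 1119 CPM in MOCK and 512, 421, 511 and 419 CPM in RRM2_OE. Its group difference of -1.40 was larger than its odd-even difference of 0.29, and odd and even libraries were separate within each group. Of the myeloid markers used to check the line, LYZ, lysozyme, was lower by 0.15 in odd libraries. With the GC offset the monocyte list had 10 higher and 10 lower, and the granule list 10 and 3. Erythroid and megakaryocyte genes were 9 higher and 3 lower of 33, and 2 and 4 with the offset. GATA1 was higher by 0.17 (edgeR adjusted p = 0.000107), but by 0.08 with the offset (0.0764).

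**Figure D5:**
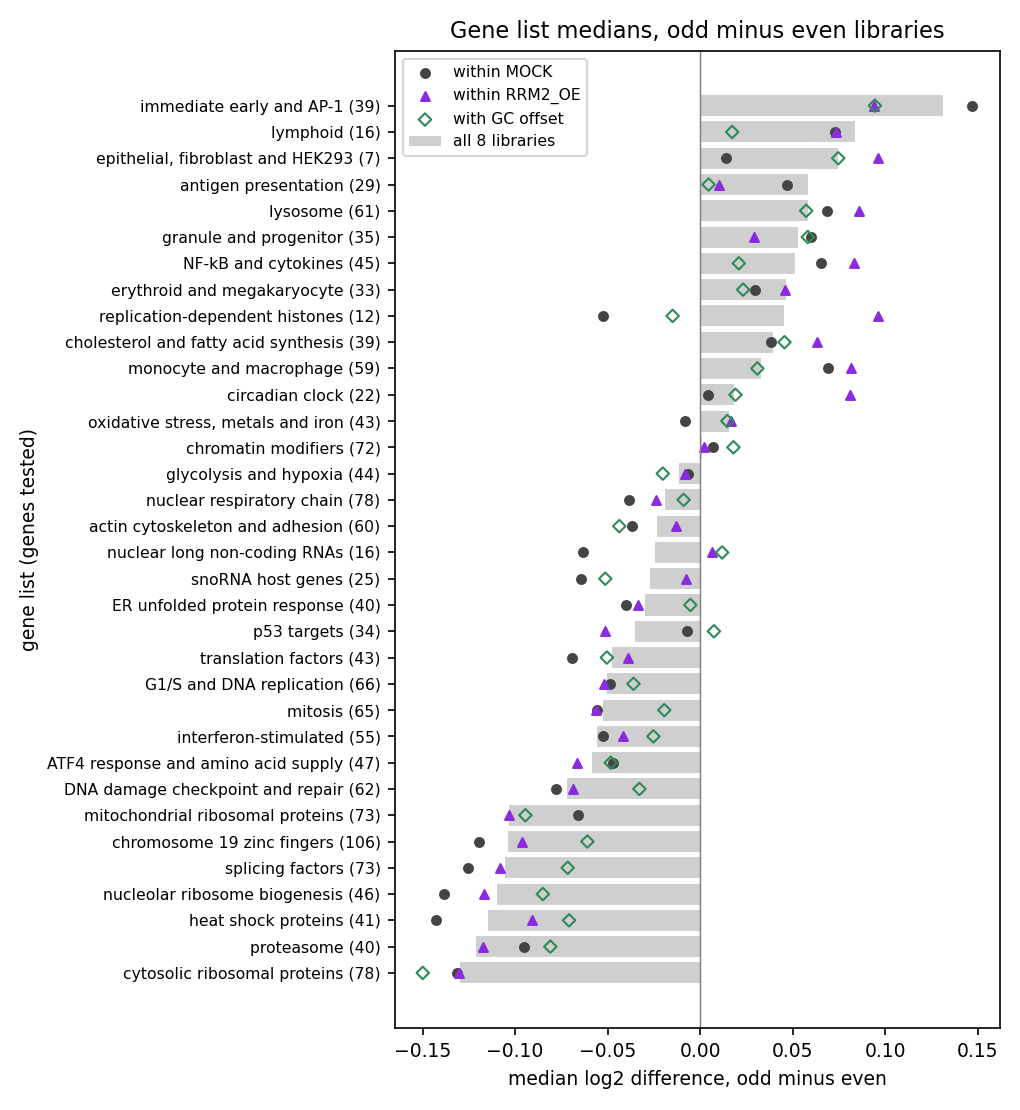
Median log2 difference, odd minus even, of each gene list other than the mitochondrial genome (number of genes tested in brackets), as bars for all 8 libraries, circles for MOCK alone, triangles for RRM2_OE alone and open diamonds for the fit with the GC offset. Cytosolic ribosomal protein genes lie lowest at -0.13 and immediate early and AP-1 genes highest at 0.13.

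Some genes differed by both parity and group. CDKN1A, the p21 cell cycle inhibitor, read at 347, 249, 334 and 246 CPM in MOCK and 990, 682, 998 and 702 CPM in RRM2_OE. Both groups showed odd libraries above even ones, the odd-even difference was 0.49 ± 0.0244 (edgeR adjusted p = 4.04e-22) and the group difference 1.51. CD74, the class II invariant chain, read at 2782, 1901, 2490 and 1775 CPM in MOCK and 2952, 1996, 3005 and 2080 CPM in RRM2_OE, with a parity difference of 0.53 and a group difference of 0.16. RRM2 differed between odd and even libraries by -0.08 (edgeR adjusted p = 0.0454, 0.0636 with the replicate block and 0.234 with the GC offset), with odd libraries below even ones within each group, and its group difference was 0.87. Leaving out MOCK replicate 1, 2 or 4 or RRM2_OE replicate 2 or 3 gave RRM2 adjusted p-values of 0.0807 to 0.173.

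Total counts did not separate the sides. The mean was 11524626 ± 233664 (SD, n = 4) in odd and 11284174 ± 199826 in even libraries (exact permutation test, two-sided, p = 0.171, adjusted p = 0.229), and 21664 ± 332 and 21619 ± 341 genes were detected (p = 0.686). The 10 most abundant genes took 9.14% ± 0.605 of counts in odd and 7.66% ± 0.487 in even libraries (exact permutation test, p = 0.0286, adjusted p = 0.0571). Mitochondrial genes are among the most abundant. MT-CO1 averaged 18556 CPM in odd and 14403 CPM in even libraries, and MT-ND4 14569 and 11563 CPM. This measure therefore shares reads with the mitochondrial share and is not a separate result. Replication-dependent histones, whose mRNAs lack a poly(A) tail, took 0.0125% and 0.0121% (exact permutation test, p = 0.629, adjusted p = 0.686).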

How the data were processed

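RNA was measured in 8 libraries, grouped and numbered as the sample labels give them. The authors deposited whole-number read counts of 34618 Ensembl genes (7832 of them at 0 throughout) and an RPKM table. Those RPKM values, deposited by the authors per the file headers, were recomputed from the counts, column totals and exon lengths to within 4.7e-06. Per the submitters' processing notes, the genome build named is hg19 (GRCh37), and HTSeq 0.11.2, TopHat2 and bcl2fastq 2.18.0.12 are listed without roles. Neither the annotation nor the strand setting is given there. Coordinates come from the count table. Current symbols were found for 32562 IDs and GENCODE 29 symbols for 175, which left 1881 IDs unnamed.

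The main test was edgeR 4.0.16 under R 4.3.3 (filterByExpr on group by parity, TMM, robust quasi-likelihood F test) on counts, with group and parity as terms. P-values were adjusted by Benjamini-Hochberg over the 15782 genes that passed the filter and called below 0.05, and log2 differences are odd minus even. DESeq2 1.42.0, limma 3.58.1 (limma-voom, and log2 of RPKM with a pseudocount of 1 or 0.1), other scalings and filters, and leaving out each library were alternatives. GC is that of GENCODE 29 transcripts, and the GC offset was a lowess (span 0.3) per library, added after seeing the data. Single values per library were compared, odd against even, with exact permutation tests that took no account of group. Of 1743 entries in 35 gene lists, 1690 were found, and PECAM1 was not analysed here. Of the markers of other cells, 2 are not reported here.

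The members and lists were chosen with earlier results of these data known. Genes are named by a rule. It took the 10 largest differences each way among called genes averaging 5 CPM or more whose odd and even libraries do not overlap. For these, unnamed genes, ribosomal protein pseudogenes and symbols with a hyphen or of LINC, MIR, small nucleolar, small nuclear or clone type were left out. This left out the mitochondrial genes. The rule then added all mitochondrial genes, 2 members of each other list with the smallest adjusted p, and RRM2, which gave 99 genes. Of these, 15 have a same-strand and 33 an opposite-strand overlap with another counted gene, and their values are uncertain. FEN1, FADS2, SYVN1 and IFITM2 are among those with a same-strand overlap. Levels are not compared between genes.

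Same-numbered libraries of the 2 groups correlated at 0.45 to 0.51 in their deviations from the group means, all 4 above the 0.1 used as the mark for running the replicate block. For another number of like parity the range was 0.48 to 0.56, and for unlike parity -0.56 to -0.46. The signs of these correlations followed parity. Once parity was taken out, same-numbered libraries correlated at -0.06 and -0.08, and other numbers of like parity at 0.06 and 0.08. With 2 libraries of each parity in a group, these values mirror each other. They give no sign of a pairing by number but cannot exclude one, and the labels give none.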

Additional observations from a re-analysis of the deposited data

Results flagged for a closer look

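In a group of 4 libraries, a value was marked when its gap to the nearest other was over Dixon's 95% critical value of the whole range, which chance alone does in about 1 in 20 groups. MOCK replicate 2 stood above the other even libraries in several related measures. Its mitochondrial share of counts was 7.69%, with the next at 6.60%. Its share in genes with exons under 1000 bp was 5.62% (next 5.23%), and its share in the 10 most abundant genes 8.39% (next 7.46%). The mitochondrial genes MT-CO1 at 16130 CPM (next 13973), MT-CO2 at 9000.4 CPM (next 7466), MT-CO3 at 5882 CPM (next 5091) and MT-ND3 at 1876 CPM (next 1499) showed the same library high. These measures share reads and are not independent. EIF3C stood at 10.3 CPM in MOCK replicate 2, with the next even library at 7.59 CPM.

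Among odd libraries, MOCK replicate 3 had the fewest total counts, 11177623, with the next at 11610508, and the lowest NOP10 at 94.5 CPM (next 96.9). MOCK replicate 1 had the highest NPIPB5 at 40.7 CPM (next 36.4), OST4 at 184 CPM (next 165), PSMD8 at 168 CPM (next 157) and CAPZB at 322 CPM (next 292). RRM2_OE replicate 1 had the highest ATP5MK at 28.8 CPM (next 23.7).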

How the results depend on the processing

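Both counts kept within 1.5 times of their values under RLE and upper-quartile factors, library sizes alone, limma-voom, RPKM, either filter and mitochondrial genes left out. With the replicate block, 2252 genes were higher and 2179 lower in edgeR, and with the GC offset beside the block 1939 and 1897; among the genes named by rule the block changed no other call than those of MT-ND4 and RRM2. Without the group covariate the counts were 1098 higher and 985 lower, with glmTreat against 1.2-fold 202 and 120, at 2-fold or more 22 and 24, and over the 6723 genes that overlap no other counted gene 1057 and 1012, where fewer genes were tested. DESeq2 called 1496 genes lower in odd-numbered libraries, and its genes called for group in the same fit were 2891, its genes called for parity within MOCK 713 and its genes called for parity within RRM2_OE 1136. The cause was not tested. Without the low-count filter 2 genes passed the interaction test. Leaving out each library in turn gave 2042 to 2252 genes higher and 1944 to 2220 lower. The difference in mitochondrial share of counts ranged from 1.40 to 2.01 percentage points (exact permutation test, p = 0.0571, the smallest that 3 against 4 allows). IGLL1, at 0.11, turned to -0.0043 with the GC offset and -0.0044 with the block beside it. MT-RNR1 and MT-RNR2 were not among the 13 mitochondrial genes counted, so every fit and the mitochondrial share already leave them out. Depth limits the low genes: in the lowest of 5 bins by CPM (median 1.51 CPM), 2.82% were called higher and 1.74% lower, against 26.0% and 29.7% in the highest.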

Other observations

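Lists not described so far are given with their numbers of genes called higher and lower, where all tested genes had 14.9% and 14.4%. Actin and adhesion genes were 13 higher and 20 lower of 60 (median -0.02). CAPZB, a subunit of the actin capping protein, had the smallest adjusted p of that list. It read at 322, 186, 292 and 188 CPM in MOCK and 291, 176, 286 and 166 CPM in RRM2_OE and rose by 0.74 ± 0.0291 (edgeR adjusted p = 5.75e-26), with every odd library above every even one. MYH9, the heavy chain of non-muscle myosin, fell by 0.27. Antigen presentation genes were 8 higher and 6 lower of 29. The ATF4 and amino acid list had 11 higher and 17 lower of 47, with the transporter SLC7A5 rising by 0.43 and MTHFD1 falling by 0.32. Chromatin modifiers were 16 and 16 of 72, with CHD2 falling by 0.25 and SIRT2 rising by 0.37.

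Interferon-stimulated genes were 6 higher and 13 lower of 55, with IFITM2 rising by 0.34 and PARP14 falling by 0.21. Genes of the ER unfolded protein response were 6 and 12 of 40, with the ubiquitin ligase SYVN1 rising by 0.40 and PDIA6 falling by 0.28. Glycolysis and hypoxia genes were 8 and 12 of 44, with LDHB falling by 0.34 and TPI1 rising by 0.24. Oxidative stress genes were 7 and 7 of 43, GPX1, a glutathione peroxidase, rising by 0.43. P53 targets were 8 and 7 of 34, CDKN1A among those that rose. Host genes of snoRNAs were 3 and 7 of 25, with GAS5 falling by 0.34, and nuclear long non-coding RNAs 2 and 3 of 16, with NEAT1 falling by 0.19. Circadian genes were 3 and 0 of 22, PER1 rising by 0.38.

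Histone genes were 1 and 1 of 12, lymphoid genes 2 and 1 of 16, and the epithelial, fibroblast and HEK293 list 0 and 1 of 7. KRT18 was the gene of the last list that fell, by 0.31. H2BC12 rose by 0.30 and H2AC6 fell by 0.22, which without RRM2_OE replicate 1 had an edgeR adjusted p of 0.0506. NKG7 rose by 0.37.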
